A study of Mus musculus with 576 samples.

Results

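The genes described here are 8 transcription factors of the endocrine cascade that follows Neurog3 in the embryonic pancreas, namely Neurog3, Neurod1, Insm1, Nkx2-2, Pax4, Pax6, Fev and Rfx6. They are given by name, and all 8 were found among the 36658 genes of the count tables. Their levels and their order of co-detection were read in single epithelial cells, taken as Prox1-GFP cells with Epcam at 20 CPM or more (CPM scales a count to a library of standard size), and the other cells of the series served as background.

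Single GFP+ cells of the E12.5 mouse dorsal pancreas were sorted and profiled by Smart-seq2, a plate method that makes 1 library per well and attaches no molecular identifiers. The embryos came from 3 lines on a C57BL/6J background, of mixed sexes. In the lines Nkx2.5-Cre;R26mTmG (Nkx2.5) and Nkx3.2-Cre;R26mTmG (Nkx3.2), Cre recombinase driven by a gene of the pancreatic mesenchyme turns on GFP for good in the cells that expressed it and in their descendants. Prox1-GFP embryos carry a transgene in which regulatory DNA of Prox1, a factor of pancreatic progenitors and of other tissues, drives GFP, so the sort takes any cell with an active reporter and was not a sort for epithelium. Each line filled 2 plates of 96 wells. No animal or embryo is given for any cell, so each line counts as 1 sample, its cells are not replicates of a condition, and no test between groups of cells could be run. Intervals are 95% exact Poisson intervals for CPM of summed counts and exact binomial intervals for shares of cells, and they cover counting error only. Prox1-GFP libraries were numbered apart from those of the Cre lines, so batch and line cannot be told apart.

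During pancreas development, endocrine cells arise from an epithelium of SOX9+ progenitors in which some cells switch on Neurog3. NEUROG3 is a basic helix-loop-helix factor that is needed for all islet endocrine lineages, is made for a short time only, and binds DNA at E-boxes, written CANNTG. It activates further factors, among them NEUROD1, INSM1, PAX4 and NKX2-2, which together with PAX6, FEV and RFX6 carry the cells towards hormone production. At this stage of the mouse embryo most hormone-producing cells make glucagon.

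By the coordinates of GENCODE M21 on GRCm38, Neurog3 (ENSMUSG00000044312) lies at chr10:62133090-62134763 on the plus strand with 2 exons, and Rfx6 (ENSMUSG00000019900) at chr10:51677756-51730432 on the same strand with 19 exons. Neurod1 (ENSMUSG00000034701, chr2:79452521-79456751, minus strand, 2 exons), Pax6 (ENSMUSG00000027168, chr2:105668900-105697364, plus strand, 8 exons), the single-exon Insm1 (ENSMUSG00000068154, chr2:146221921-146225020, plus strand) and Nkx2-2 (ENSMUSG00000027434, chr2:147177546-147194243, minus strand, 2 exons) are all on chromosome 2. Pax4 (ENSMUSG00000029706) is at chr6:28442334-28449353 on the minus strand with 11 exons, and Fev (ENSMUSG00000055197) at chr1:74881509-74885419 on the minus strand with 3 exons. Exons of Fam241b, which is read from the opposite strand, cover 273 of the 1674 exon bases of Neurog3, and exons of Cerkl, read from the same strand, cover 201 of the 2729 exon bases of Neurod1. Smart-seq2 does not mark the strand, so reads in these overlaps cannot be told apart. The estimated counts above 0 had a decimal part of any size in 88.2% of cases for Insm1, 79.2% for Neurog3, 78.2% for Pax6 and 69.6% for Neurod1, as where reads are split between transcripts or genes. They lay more than 0.01 from a whole number in 60.8%, 79.2%, 38.1% and 65.2%, and those of the other factors were all whole. The related genes Neurog1, Neurog2, Neurod4, Pax2, Nkx2-4 and Insm2 had no count in the epithelial cells. Antisense genes annotated at Neurod1, Nkx2-2 and Pax6 were not analysed here.

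Because E-boxes are the sequences that NEUROG3 and NEUROD1 bind, the stretches before a RefSeq start site of 4 of the genes are shown with every CANNTG in capitals. They come from RefSeq promoters on GRCm38.p6, cover at most 250 bases before the start site, run 5′ to 3′ on the strand of the gene, and leave out any base that a GENCODE exon covers. They lie at chr10:62132840-62133089 (plus) for Neurog3, chr2:79456786-79456886 (minus) for Neurod1, chr2:147186456-147186652 (minus) for Nkx2-2 and chr1:74885420-74885658 (minus) for Fev. That of Nkx2-2 precedes a start site inside the gene as GENCODE places it, and the others lie before the 5′ end of the gene.
Neurog3: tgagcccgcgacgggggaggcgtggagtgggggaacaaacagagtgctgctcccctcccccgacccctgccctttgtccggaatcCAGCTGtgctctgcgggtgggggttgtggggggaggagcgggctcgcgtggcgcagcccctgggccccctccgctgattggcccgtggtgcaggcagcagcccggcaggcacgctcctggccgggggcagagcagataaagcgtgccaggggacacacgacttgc
Neurod1: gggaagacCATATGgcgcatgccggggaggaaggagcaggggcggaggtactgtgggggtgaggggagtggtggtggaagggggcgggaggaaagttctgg
Nkx2-2: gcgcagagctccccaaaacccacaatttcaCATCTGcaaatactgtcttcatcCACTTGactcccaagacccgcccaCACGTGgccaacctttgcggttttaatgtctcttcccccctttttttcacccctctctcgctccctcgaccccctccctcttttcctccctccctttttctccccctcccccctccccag
Fev: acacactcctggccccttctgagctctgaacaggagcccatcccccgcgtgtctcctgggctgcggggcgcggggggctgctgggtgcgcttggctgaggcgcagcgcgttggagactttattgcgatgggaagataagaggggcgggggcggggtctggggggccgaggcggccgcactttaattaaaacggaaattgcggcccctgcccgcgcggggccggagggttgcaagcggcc
The table holds 7 promoters for 6 of the 8 genes, with none listed for Insm1 and Pax4. CANNTG, which reads the same on both strands, occurred once in the 250 bases upstream of Neurog3, as CAGCTG, and once upstream of Neurod1, as CATATG. Nkx2-2 held 3, of which CATCTG is the reverse complement of CAGATG. None was found in the same window of Fev, Rfx6 and the first of the 2 Pax6 promoters, and 1 upstream of the other Pax6 promoter. Of all 32851 promoters of this length, 66.2% held a CANNTG, 13.001% held CAGCTG and 14.4% held CAGATG or CATCTG. A match is a run of letters in this window and shows no binding.

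In the Prox1-GFP line, 93 and 92 cells of plates 8A and 8B passed the filters on genes, counts and mitochondrial share, and of these 59 and 49 were epithelial by Epcam. The epithelial cells held 474414 to 1237640 counts, with a median of 829393, and a median of 7628.5 genes. The Epcam rule separated the cells by a wide gap, since the lowest epithelial cells stood at 30.3 and 62.4 CPM and the highest of the others at 3.67 and 2.26 CPM. Epithelial markers that the rule did not use went the same way, with Cdh1 at 320.4 CPM, Krt8 at 1062 CPM and Cldn6 at 1034 CPM in epithelial cells against 2.496, 39.3 and 2.36 CPM in the other Prox1-GFP cells. A single cell of these, in well C11 of plate 8A, held 99.3%, 99.9% and 99.3% of the counts, and without it the levels were 0.0173, 0.0346 and 0.0173 CPM. The defining mesenchymal genes Pdgfra and Col3a1 were at 1.16 and 14.8 CPM in the epithelial cells and at 169.1 and 1381 CPM in the others (171.3 and 1399 CPM without well C11). Of the epithelial counts, 1 cell held 82.1% for Pdgfra and another 64.8% for Col3a1. The latter, in well H5 of plate 8A, was the cell with the lowest Epcam, 30.3 CPM. It held Col3a1 at 1021 CPM and Col1a1 at 1297.5 CPM, with Cdh1, Krt8, Cldn6, Sox9 and Pdx1 at 0. The cell in well A11 of plate 8B, with Epcam at 161.4 CPM, was of the same kind, with Col3a1 at 380.8 CPM, Col1a1 at 734.1 CPM and the same 5 genes at 0. Both go against the label of epithelium that the rule gives them. Apart from Pax6 at 2.33 CPM in well H5, neither held any of the 8 factors, and without both cells the epithelial Col3a1 level was 1.29 CPM and that of Cdh1 326.8 CPM. Of the endothelial genes, Cdh5 was at 0 in both, Pecam1 was in every cell at 33.4 CPM in the epithelium and 42.8 CPM in the others, and Kdr, Tie1 and Lyve1 were at no more than 1.56 CPM in the epithelium and 6.94 CPM in the others. Gut Cdx2 and stomach Sox2 were at 0 in both. In the Cre lines, 90 and 83 cells (Nkx2.5) and 95 and 96 cells (Nkx3.2) passed, and they held Epcam at 0.0680 and 3.98 CPM.

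All 8 factors were detected in the epithelium, but in very different shares of its cells. These are shares of cells sorted for the Prox1 reporter, a gate that can itself set them. NKX2-2, a homeodomain factor that is already made in progenitors, had transcripts in 95 cells, or 87.96% (80.3 to 93.4%), at 55.1 CPM (53.6 to 56.6) over the epithelium. In the cells that held it, Nkx2-2 ranged from 1.14 to 406.0 CPM with a median of 33.9 CPM. The other factors were each found in a minority of cells. Neurog3 was detected in 23 cells (21.3%, 14.005 to 30.2%), at 111.8 CPM (109.7 to 114.01) over the epithelium. Its cells ranged from 9.37 to 4923 CPM with a median of 85.4 CPM, and a single cell held 39.6% of all its counts. A few cells with much Neurog3 thus stood beside many with little.

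NEUROD1, a helix-loop-helix factor that maintains the endocrine programme, had transcripts in 21 cells (19.4%), at 104.7 CPM (102.6 to 106.8) over the epithelium and a median of 294.2 CPM in the cells that held it, from 0.975 to 1870 CPM. Insm1, which encodes a zinc finger factor of endocrine differentiation, was found in 22 cells (20.4%), of which 17 held it at 5 CPM or more. It reached 11.01 CPM only, with at most 160.3 CPM in a cell. Pax4, whose product favours the beta and delta cell fates, was the least frequent, with 11 cells (10.2%) and 22.4 CPM, and 47.1% of its counts came from 1 cell. The paired-box gene Pax6, needed for alpha cells and for hormone gene activity, was detected in 34 cells (31.5%) at 73.99 CPM. Only 19 of these 34 cells held Pax6 at 5 CPM or more. Fev, which encodes an ETS factor found in endocrine precursors, was in 17 cells (15.7%) at 41.1 CPM, of which the cell of well E12 of plate 8A held 42.03% of the counts. Without that cell Fev was at 24.04 CPM. Rfx6, whose product acts downstream of NEUROG3 and is needed for most islet cell types, was in 29 cells (26.9%) at 46.2 CPM. The median Fev cell held 52.1 CPM and the highest 2018 CPM, while the median Rfx6 cell held 88.7 CPM and the highest 672.04 CPM.

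**Figure D1:**
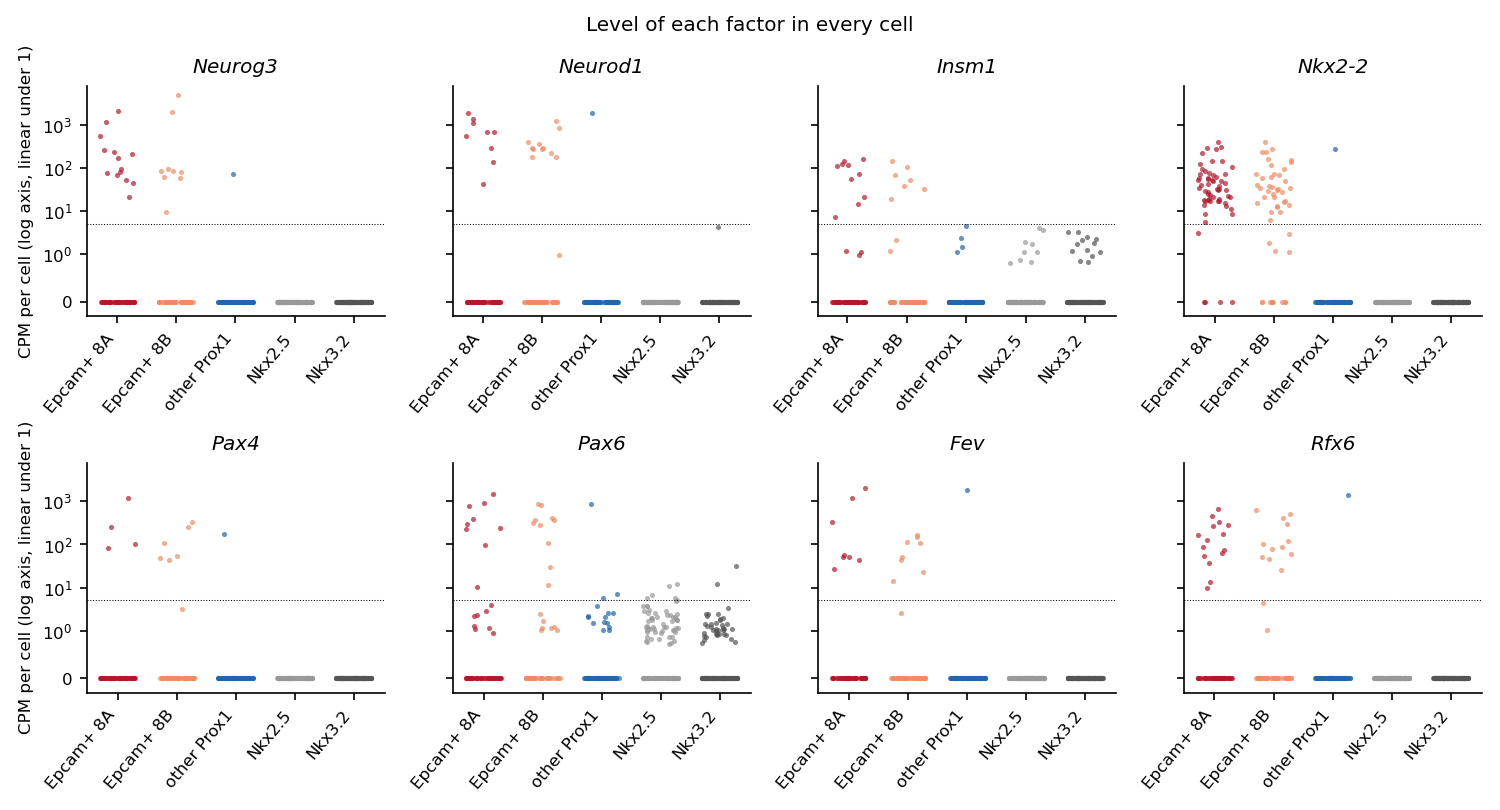
Level of each of the 8 factors in every cell that passed, in CPM on an axis that is logarithmic above 1 and linear below. Each point is a cell, in columns for the epithelial Prox1-GFP cells of plates 8A and 8B, the other Prox1-GFP cells and the Nkx2.5 and Nkx3.2 lines, and the dotted line marks 5 CPM. Nkx2-2 was spread over most epithelial cells and the other factors over a minority, while outside the epithelium 1 cell held 7 factors at once and the remaining points, of Insm1, Pax6 and 1 cell with Neurod1, stayed at or below 32.4 CPM.

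Levels can be compared between genes only per length of transcript. Per kilobase, the summed epithelial level was highest for Neurog3 (72.6 CPM per kb), followed by Neurod1 (38.3), Fev (27.6), Nkx2-2 (25.98), Pax6 (16.7), Pax4 (16.3), Rfx6 (13.3) and Insm1 (3.55). By counting error alone, the intervals of Pax6 (16.3 to 17.1 CPM per kb) and Pax4 (15.6 to 17.04) overlapped, as nearly did those of Fev (26.7 to 28.5) and Nkx2-2 (25.3 to 26.7). The third place of Fev rested on well E12 of plate 8A, without which it was at 16.1 CPM per kb, below Nkx2-2. That of Pax4 above Rfx6 rested on well E3 of plate 8A, without which Pax4 was at 8.70 CPM per kb, and on plate 8B Pax4 (12.3 CPM per kb) was below Rfx6 (13.7). The spread between plates was larger than these intervals. Fev stood at 66.2 CPM on plate 8A and 15.1 CPM on plate 8B, Neurog3 at 83.04 and 141.6 CPM, and Pax4 at 27.7 and 16.8 CPM. Pax6 (74.2 and 73.7 CPM), Rfx6 (45.1 and 47.3 CPM) and Nkx2-2 (59.4 and 50.6 CPM) were closer between the plates. The shares of cells with a factor on the plates were less far apart, with 14 of 59 and 9 of 49 cells for Neurog3 and 8 and 9 cells for Fev.

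Outside the epithelium, most of the factors were at 0. In the cells of both Cre lines, Neurog3, Nkx2-2, Pax4, Fev and Rfx6 had no count, and Neurod1 had 4 counts in 1 Nkx3.2 cell. For a gene without a count, the exact upper limit on the share of cells with a count was 2.11% (Nkx2.5) and 1.91% (Nkx3.2). It does not bound the share of cells that express the gene. In the Cre lines, Insm1 was found in 5.202% and 6.81% of the cells, at no more than 4.05 CPM in any. Pax6 was found in 33.5% of the Nkx2.5 cells and 19.9% of the Nkx3.2 cells, but at a summed level of 0.834 and 0.489 CPM. The share of epithelial cells with at least 1 Pax6 count, 31.5%, was therefore within the range of these mesenchymal lines, and the epithelial Pax6 cells below 5 CPM are at the level seen in the background.

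Among the other Prox1-GFP cells, 34 on plate 8A and 43 on plate 8B, 1 cell stood apart. The cell in well C11 of plate 8A had no Epcam count, but held the epithelial markers Krt8 (3011 CPM), Cdh1 (189.97 CPM) and Cldn6 (179.5 CPM), though no Krt18 (374.4 CPM in the epithelium), and none of the 6 mesenchymal markers tested, which include Vim and Col3a1. This cell held 7 of the 8 factors, with Neurod1 at 1842 CPM, Fev at 1791 CPM, Rfx6 at 1432 CPM, Pax6 at 869.9 CPM, Nkx2-2 at 276.4 CPM, Pax4 at 175.6 CPM and Neurog3 at 70.7 CPM. Insm1, Isl1, Sox9 and the 8 hormone genes listed were at 0, and the granule genes Chgb and Chga were at 20579 and 2865 CPM. It was kept among the other cells, as the rule places it. The levels of Cdh1, Krt8, Cldn6, Pdgfra and Col3a1 in those cells and the ratios of the factors are given with and without it. Without it, 6 of the factors had no count in the other Prox1-GFP cells, Insm1 had 7 counts in 4 cells and Pax6 had 28 counts in 14 cells.

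In the comparison of epithelial with other Prox1-GFP cells of the same plates, 6 of the 8 factors had a summed CPM at least 4-fold higher in the epithelium, against 12.1% of all 18340 genes found in at least 5 of the cells. The ratio was 121.1 for Neurog3, 91.99 for Insm1, 15.3 for Nkx2-2, 9.76 for Pax4, 6.25 for Pax6 and 4.35 for Neurod1. Fev and Rfx6 were at ratios of 1.76 and 2.47. All 8 were found in at least 5 of the cells, but only Pax6, in 15 cells, was in at least 5 of the other Prox1-GFP cells. The rest passed the filter of 5 cells only through the epithelium. The numbers of factors called in this comparison, also by plate, are therefore no measure of the set. The small ratios rested on the cell of well C11. Without it, all 8 factors were at least 4-fold higher (12.6% of all genes), but 6 of them had no count left in the other cells. These 6, and Insm1, passed the filter of 5 cells only through the epithelium, so the count of 8 is no measure of the set either. The ratios were then 90.8 for Insm1 and 152.5 for Pax6, and each of the 6 was at least 430.2-fold higher against a floor of 3 counts over the group. That lowest bound, of Pax4, was 229.4 without well E3 of plate 8A. On plate 8A, which holds well C11, 4 of the 8 passed 4-fold (2006 of 16249 genes). All 8 did on plate 8B (1987 of 16239 genes), where the same 6 factors had no count in the other cells. The call of Neurod1 also rested on the cell of well A1 of plate 8A, without which its ratio was 3.62, and on the Epcam level. With Epcam at 100 CPM or more, the ratio of Neurod1 was 3.90 and 5 factors passed (2087 of 18340 genes). The ratios of Insm1 and Nkx2-2 were then 11.2 and 8.54. Leaving out 1 epithelial cell brought the ratio of Neurog3 to 73.8 (well H8 of plate 8B), that of Pax4 to 5.205 (E3 of 8A) and that of Fev to 1.03 (E12 of 8A). Leaving out well G12 of plate 8A, a cell outside the epithelium, brought that of Insm1 to 159.1.

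Next, the order in which the factors were detected together was examined cell by cell. Of the epithelial cells, 97 (89.8%) held at least 1 factor, 40 held exactly 1, 25 held 2 and 32 held 3 or more. A factor at 1 count was not confined to the epithelium. Pax6 by itself was found in 33.5% of the Nkx2.5, 19.9% of the Nkx3.2 and 19.5% of the other Prox1-GFP cells. At 5 CPM or more, 92 epithelial cells (85.2%) held a factor. Of the 40 epithelial cells with a single factor, 38 held Nkx2-2 and the other 2 Pax6, at no more than 2.48 CPM. Nkx2-2 was the shared base of the remaining combinations. Every cell with Neurog3, Neurod1, Insm1, Pax4, Fev or Rfx6 held Nkx2-2 as well when 1 count sufficed, and so did 32 of the 34 Pax6 cells. At 5 CPM, Nkx2-2 was missing from 1 each of 23 Neurog3, 20 Neurod1, 16 Fev and 27 Rfx6 cells, and 1 cell held Neurog3 alone. Nkx2-2 is found in most epithelial cells, and 58 of the 71 cells with neither Neurog3 nor Neurod1 (81.7%) held it too.

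Neurog3 and Neurod1 were found together in 7 cells, Neurog3 alone in 16 and Neurod1 alone in 14. Of the 23 Neurog3 cells, 7 held Neurod1 (30.4%, 13.2 to 52.9%), against 14 of the 85 cells without Neurog3 (16.5%). Of the 21 Neurod1 cells, 14 held no Neurog3 (66.7%). The Neurod1 cells carried most of the later factors, with Pax6 in 19, Fev in 17, Rfx6 in 17, Insm1 in 13 and Pax4 in 9 of 21. Fev was nested within them, because all 17 Fev cells held Neurod1 and Pax6. Pax4 was found with both genes, with Neurod1 and Rfx6 each in 9, Insm1 and Pax6 each in 8 and Neurog3 in 7 of its 11 cells.

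**Figure D2:**
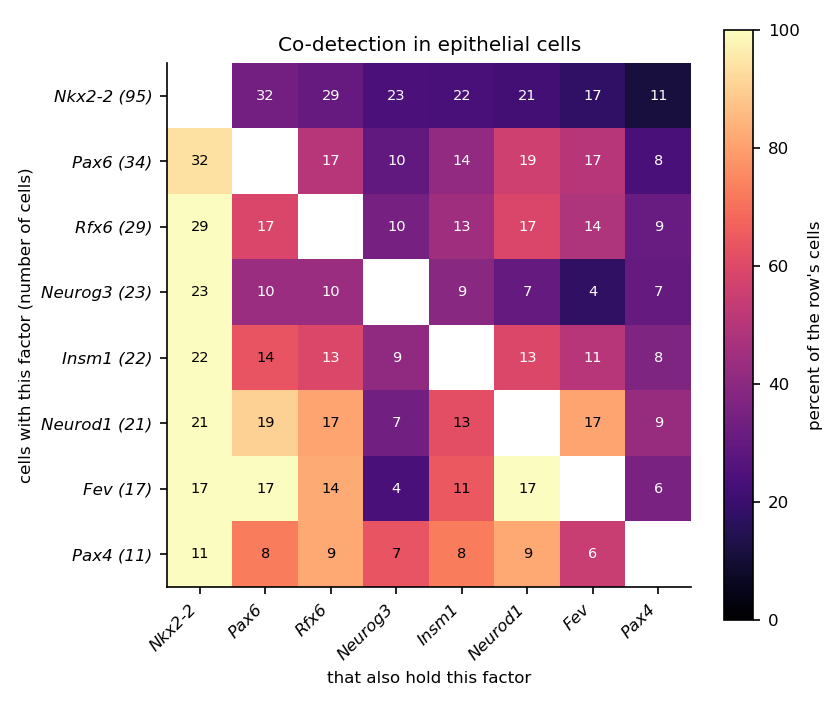
Co-detection of the 8 factors in the epithelial cells. Rows are the cells with a factor, with their number in brackets, columns the second factor, the number in a square counts the cells that hold both, and the colour gives it as a percent of the row's cells. The Nkx2-2 column is near 100% in every row, the 17 Fev cells all hold Neurod1 and Pax6, and 7 of the 23 Neurog3 cells hold Neurod1.

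Not every cell fitted a single series in which each factor is added to those before it. Ordered by the number of cells that hold them, the series was Nkx2-2, Pax6, Rfx6, Neurog3, Insm1, Neurod1, Fev and Pax4. In 49 of the 97 cells with a factor (50.5%) the factors held were the first of that series with no gap, and 38 of these 49 were cells with Nkx2-2 alone. With a threshold of 5 CPM in place of 1 count, the series became Nkx2-2, Rfx6, Neurog3, Neurod1, Pax6, Insm1, Fev and Pax4. Of 92 cells with a factor, 60 (65.2%) were nested in it, and 48 of these 60 held Nkx2-2 alone. Pax6 moved from the second to the fifth place, as 15 of its cells held it below 5 CPM. The order was read from the same cells and is a description. A factor that a cell has lost again, or that went undetected, counts as a gap. The shares therefore cannot show whether the factors come on in a single series.

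Cells were then placed in 4 classes by Neurog3 and Neurod1, with 71 cells that held neither, 16 that held Neurog3 only, 7 that held both and 14 that held Neurod1 only. All classes were found on both plates, in the same order with 39, 11, 3 and 6 cells on plate 8A and 32, 5, 4 and 8 cells on plate 8B. Their depth was similar, with median counts of 850562, 795443, 896687 and 786730. Epcam, which defined the epithelium, had a median of 838.3 CPM in the cells with neither, 700.6 CPM with Neurog3 only, 448.0 CPM with both and 276.3 CPM with Neurod1 only, and its part in the differences between classes was not tested. The same holds for Prox1, the gene behind the sort, at 1342, 2382, 1359 and 829.3 CPM. The class with Neurod1 only includes the cell of well H1 of plate 8B, which held 1 Neurod1 count beside Sox9 at 732.6 CPM and the acinar enzyme gene Cpa1 at 5208 CPM, and which falls into the class with neither at a threshold of 5 CPM.

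**Figure D3:**
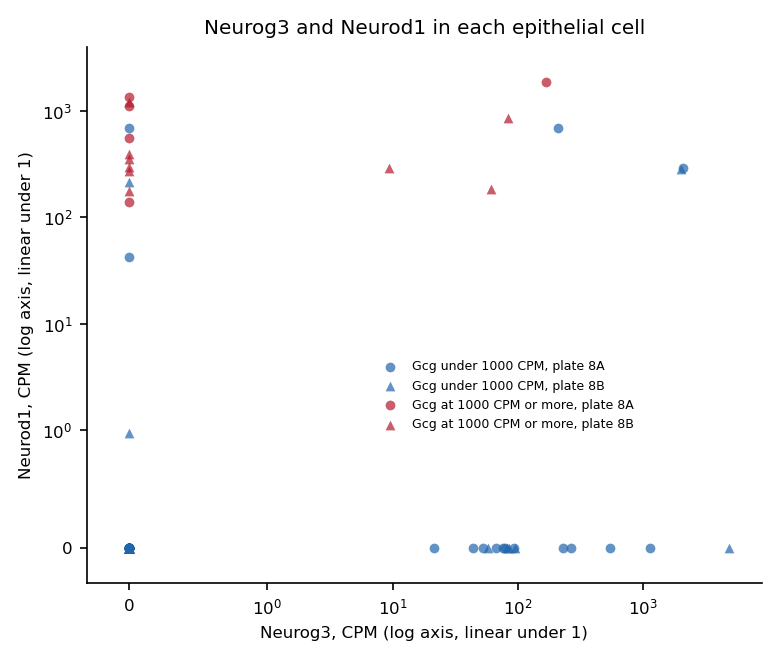
Neurog3 against Neurod1 in each epithelial cell, both in CPM on axes that are logarithmic above 1 and linear below. Circles are cells of plate 8A and triangles of plate 8B, in red where glucagon (Gcg) was at 1000 CPM or more. The cells along the bottom hold Neurog3 without Neurod1 and no high Gcg, those along the left edge Neurod1 without Neurog3, and 7 cells hold both.

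The other 6 factors, which did not define the classes, differed between them. Pax6 was low and Fev was not detected in the classes without Neurod1. Pax6 was at 0.262 CPM (0.150 to 0.425) in 11 of the 71 cells with neither, 0.485 CPM (0.178 to 1.06) in 4 of the 16 with Neurog3 only, 340.9 CPM with both and 399.8 CPM with Neurod1 only. Fev had no count in the cells with neither or with Neurog3 only, and was at 478.2 CPM with both and 67.9 CPM with Neurod1 only. Rfx6 was also detected in the classes without Neurod1. Its summed level was 3.37 CPM with neither, 31.7 CPM with Neurog3 only, 281.6 CPM with both and 161.9 CPM with Neurod1 only, and it was found in 8 of 71, 4 of 16, 6 of 7 and 11 of 14 cells.

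Pax4 and Nkx2-2 were highest in the cells with both. Pax4 was absent from the cells with neither, at 20.5 CPM in 2 of the 16 cells with Neurog3 only, at 245.8 CPM in 5 of the 7 cells with both and at 22.5 CPM in 4 of the 14 cells with Neurod1 only. Nkx2-2 was at 27.5 CPM (26.2 to 28.9), 70.3 CPM (65.7 to 75.1), 237.6 CPM (225.6 to 250.01) and 86.5 CPM (81.2 to 92.1) in the same order of classes. Insm1 was higher in the classes with Neurod1, with 1.15 CPM, 14.2 CPM, 35.9 CPM (19.9 CPM without well E12 of plate 8A) and 46.5 CPM in that order. Single cells weighed on these sums, since 1 cell held 63.02% of the Pax4, 53.1% of the Fev and 51.6% of the Insm1 counts of the cells with both, and 84.2% of the Pax4, 66.9% of the Insm1 and 57.9% of the Rfx6 counts of the cells with Neurog3 only. Between the cells with Neurog3 only and those with neither, the Insm1 ratio was 12.4, became 4.39 without well H8 of plate 8B and 50.1 without well E3 of plate 8B, which held 75.7% of the Insm1 counts of the cells with neither. The Rfx6 ratio was 9.41, and 4.18 without well H3 of plate 8A.

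**Figure D4:**
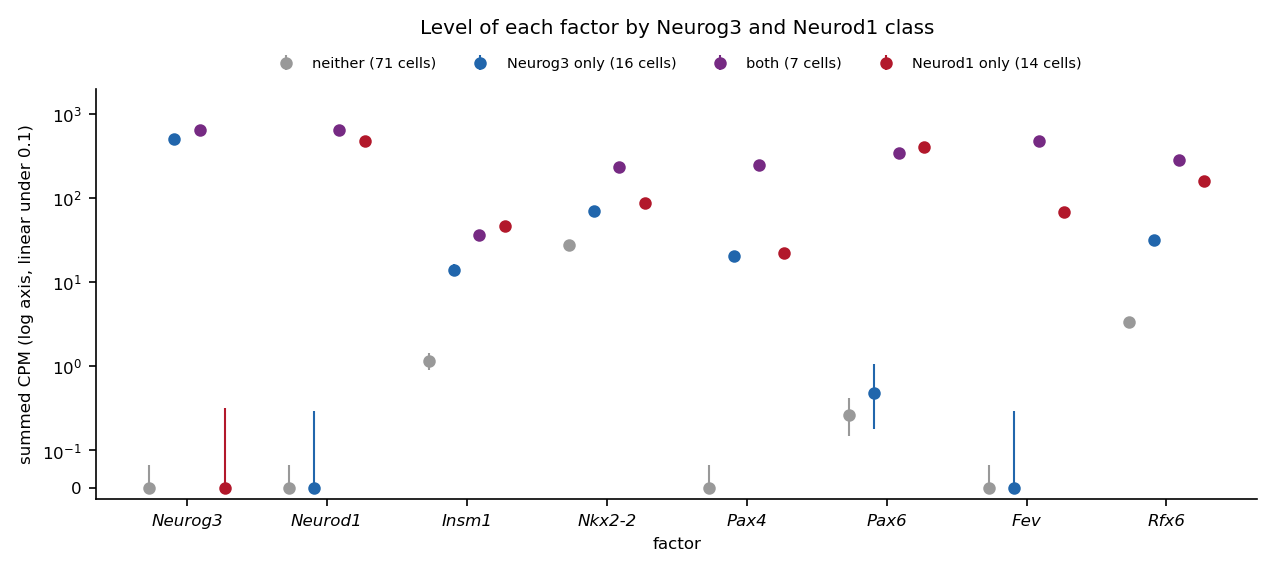
Summed level of each factor in the 4 classes of epithelial cells, in CPM on an axis that is logarithmic above 0.1 and linear below, with exact 95% Poisson intervals that are hidden by the point where they are narrow. Neurog3 and Neurod1 define the classes. Fev and Pax6 are high only in the classes with Neurod1, and Pax4 and Nkx2-2 are highest in the cells with both factors.

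The highest Neurog3 was found in 4 cells above 1000 CPM, singled out after their values had been seen. The cell of well H8 of plate 8B held Neurog3 at 4923 CPM with Pax4 at 260.8 CPM, Insm1 at 142.6 CPM, Nkx2-2 at 238.8 CPM and Rfx6 at 51.2 CPM, and had no Neurod1, Pax6 or Fev. The cell of well H3 of plate 8A held 1137 CPM with Nkx2-2 at 286.2 CPM and Rfx6 at 340.2 CPM only. In the cells of wells E3 (8A) and E10 (8B), with 2105 and 2040 CPM of Neurog3, Neurod1 was present at 292.2 and 282.4 CPM, Pax4 at 1211 and 340.8 CPM and Rfx6 at 168.8 and 496.6 CPM, and Fev was at 0. All 4 thus held Nkx2-2 and Rfx6 and lacked Fev, and 3 held Pax4. None held Hes1, a Notch target that represses Neurog3, Gcg, Ins1, Ins2 or Chga, and their Sox9 was between 0 and 83.1 CPM. Hes6, a Hes1 antagonist, was at 1249 CPM in well H8, 145.4 CPM in H3, 1364 CPM in E3 and 643.8 CPM in E10.

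The remaining 14 cells with Neurog3 only held less of it, between 21.3 and 544.7 CPM, and kept the progenitor factor Sox9 at 245.4 to 1830 CPM. Of the other factors they held Nkx2-2, in every cell and at 1.14 to 103.9 CPM, with Pax6 in 4, Insm1 in 3, Rfx6 in 2 and Pax4 in 1 of them, Pax6 at no more than 3.895 CPM. The other 5 cells with both factors held Neurog3 at 9.37 to 211.3 CPM and Neurod1 at 184.2 to 1870 CPM. Fev was present in 4 of these 5, at 146.8 to 2018 CPM, and Pax6 in all 5, at 10.04 to 906.8 CPM. The cell of well E12 of plate 8A held all 8 factors, with Fev at 2018 CPM, and had no Gcg. Its counterpart with all 8 factors, in well E8 of plate 8B, had Gcg at 38092 CPM.

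**Figure D5:**
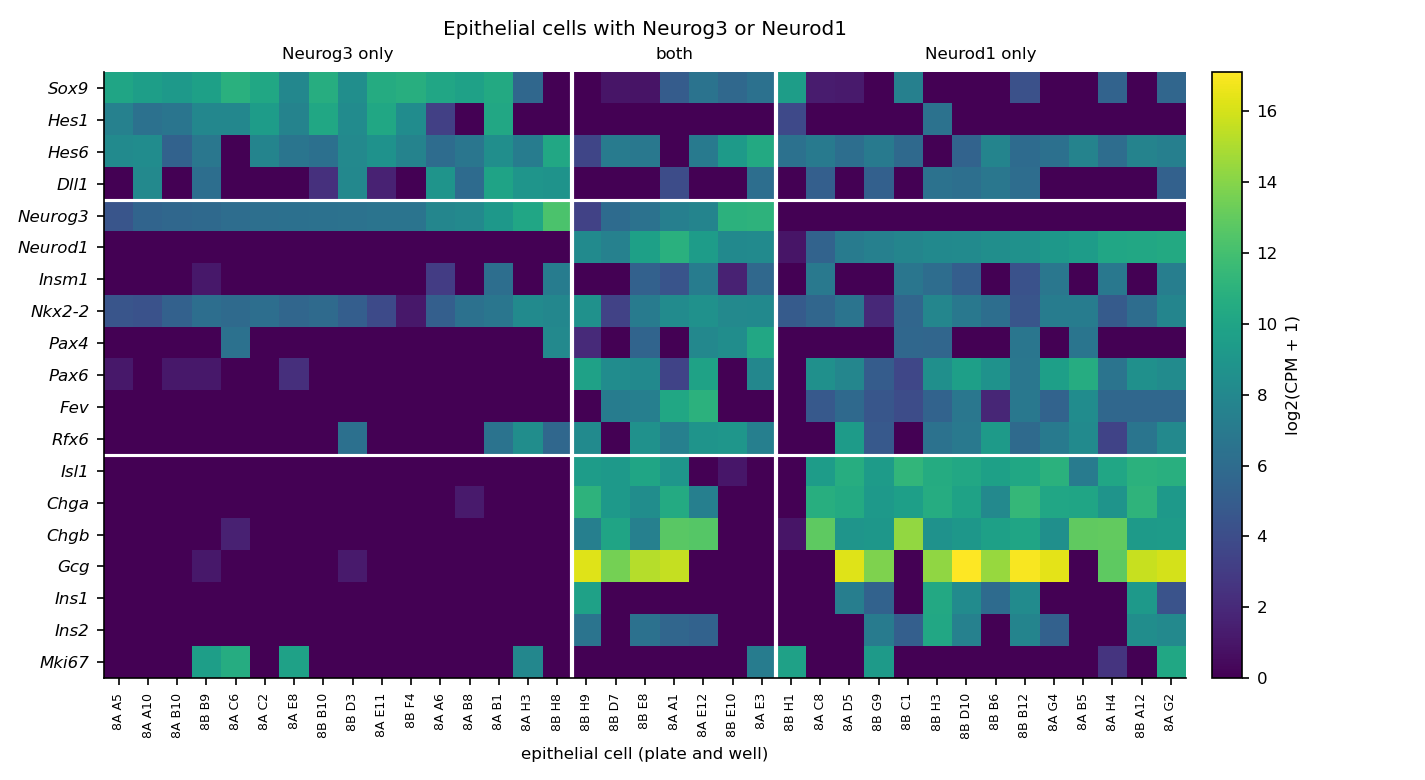
Level of the 8 factors and of related genes in every epithelial cell with Neurog3 or Neurod1, as log2(CPM + 1). Columns are cells, by plate and well, ordered by Neurog3 in the first 2 classes and by Neurod1 in the third, and rows are progenitor and Notch genes above, the 8 factors in the middle, and the later factor gene Isl1, granule genes, hormones and the cycle gene Mki67 below. In most cells on the left, Sox9 and Hes1 are high and Neurod1, Pax6, Fev and the hormones are at or near 0. Most cells on the right show the reverse.

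Genes known as targets or partners of NEUROG3 were compared between each class and the cells with neither, as the number of genes at least 4-fold higher or lower among those in at least 5 of the cells compared. With Neurog3 only, 4 of 12 such genes were higher (background 3.43% of all genes) and 1, St18, was lower (7.98%). These were the Notch ligand gene Dll1 (188.7 against 25.7 CPM), the corepressor gene Cbfa2t3 (75.6 against 2.39 CPM), the Notch glycosyltransferase gene Mfng (73.04 against 2.72 CPM) and the cell cycle inhibitor gene Cdkn1a (449.6 against 91.3 CPM). Well H8 of plate 8B held 53.9% of the Cbfa2t3 and 45.3% of the Mfng counts, and without it they were at 37.3 and 42.8 CPM. Of the St18 counts with neither, 63.8% came from well C8 of plate 8B, and without it the level was 0.834 CPM. That is less than 4-fold above the floor of 0.243 CPM for cells with Neurog3 only, so the call of St18 rested on this cell. The median ratio of the list was 2.92, and that of all genes 1.002. With both factors, 9 of 15 were higher (9.5%) and 1, Sox4, lower (18.1%), with a median ratio of 5.53 against 0.942 for all genes. Among the higher ones, Cck, a peptide hormone gene, stood at 527.7 against 0.0164 CPM, Gadd45a at 321.2 against 5.32 CPM and the zinc finger gene Myt1 at 127.8 against 0.0327 CPM. With Neurod1 only, 7 of 15 were higher (9.22%) and 1, again Sox4, lower (12.4%), with a median ratio of 3.11 against 0.927. Genes as near 0 with neither as Cck and Myt1 enter the counts for both classes with Neurod1 only through the class where they are high. These counts are therefore no measure of the list as a whole. Sox4 was at 148.2 CPM with neither, 34.97 CPM with both and 36.5 CPM with Neurod1 only, and without the cell that held most of it, at 13.07 and 8.38 CPM in the latter classes. Dll1 was at 11.3 CPM with both (2.40 CPM without well E3 of plate 8A) and 31.6 CPM with Neurod1 only, below or near its level in cells with neither.

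The 13 later endocrine factor genes had a summed level of 117.7 CPM with neither, 173.7 CPM with Neurog3 only, 1626 CPM with both and 2274 CPM with Neurod1 only. With Neurog3 only, 1 of 5 genes was 4-fold higher (background 3.43%), the ETS factor gene Etv1 (18.4 against 2.45 CPM), whose ratio of 7.51 became 3.57 without well C6 of plate 8A. With both, 7 of 10 were higher (background 9.5%) and 2 lower (Hhex and Nkx6-2, against 18.1% of all genes). With Neurod1 only, 8 of 11 were higher (9.22%) and 1, Hhex, was lower (12.4%). Genes that are at or near 0 in the other class enter such a count only through the class where they are high, so it is no measure of the list as a whole. Isl1, which encodes a factor of all islet cell types, was at 8.90 CPM with neither, 0 with Neurog3 only, 440.0 CPM with both and 1199 CPM with Neurod1 only. Most of the level with neither came from the collagen-rich cells of wells H5 (8A) and A11 (8B), at 317.4 and 269.0 CPM, and without them it was 0.287 CPM. Hhex, which was lower in both classes with Neurod1, encodes a factor of foregut progenitors and of delta cells, and stood at 69.6 CPM with neither, 0 with both and 3.73 CPM with Neurod1 only, there in 1 cell.

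Granule and hormone genes were at high levels in the classes with Neurod1. The 12 secretory granule genes summed to 16.7 CPM with neither, 25.3 CPM with Neurog3 only, 7789 CPM with both and 11689 CPM with Neurod1 only, and the 8 hormone genes to 1.08, 3.07, 32056 and 58033 CPM. With levels this low in the first 2 classes, these genes reach 5 cells mainly through the classes where they are high, so no count of higher members is given. Chga was at 0.115 CPM with neither, 0.0809 CPM with Neurog3 only, 599.5 CPM with both and 1092 CPM with Neurod1 only. Gcg was at 24404 CPM with both and 45002 CPM with Neurod1 only. At 1000 CPM or more, Gcg was found in 14 epithelial cells, from 7536 to 141059 CPM, and the next highest cell held 21.01 CPM. All 14 held Neurod1, Nkx2-2 and Pax6, 13 held Fev and 13 Rfx6, 8 held Insm1, and 4 each held Neurog3 and Pax4. High Gcg was thus found with and without Neurog3, and in no epithelial cell that lacked Neurod1.

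Progenitor genes went the other way. Of all genes, 7.98% were 4-fold lower with Neurog3 only, 18.1% with both and 12.4% with Neurod1 only. None of 14 progenitor and trunk genes was 4-fold lower with Neurog3 only, while 7 were lower with both and 6 with Neurod1 only, and the median ratios were 1.45, 0.221 and 0.337. Sox9 was at 649.8 CPM with neither, 920.7 CPM with Neurog3 only, 35.1 CPM with both and 86.5 CPM with Neurod1 only, and Hes1 at 208.2, 361.2, 0 and 6.68 CPM. Of the Sox9 counts with Neurod1 only, 75.3% came from well H1 of plate 8B, the cell with 1 Neurod1 count, and without it Sox9 was at 23.4 CPM there, below the level with both. Of 8 acinar and tip genes, 3 were lower with Neurog3 only, Cpa1 and Ctrb1 among them, and 7 in each class with Neurod1, with median ratios of 0.366, 0.0260 and 0.0710. Of 11 cell cycle genes, none was 4-fold lower with Neurog3 only, 10 with both and 1, Mcm5, with Neurod1 only, below the share of all genes, with median ratios of 0.515, 0.00226 and 0.502. Both Mki67 and Top2a were at 5 CPM or more in 34 of the 71 cells with neither (47.9%), 3 of 16 with Neurog3 only, none of 7 with both (up to 40.96% by the exact interval) and 3 of 14 with Neurod1 only. Without well H1 of plate 8B, the class with Neurod1 only had 7 progenitor genes, all 8 acinar and tip genes and 3 cell cycle genes 4-fold lower, Cpa1 was at 17.4 in place of 478.8 CPM, and 2 of its 13 cells held both Mki67 and Top2a.

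Between all Neurog3 cells and the epithelial cells without Neurog3, 3 of the 7 other factors were at least 4-fold higher, against 3.52% of all 16881 genes. Of these 3, Pax4 was in only 4 of the 85 cells without Neurog3. It passed the filter of 5 cells only through the Neurog3 cells, so the share of all genes is no measure for it. Pax4 was at 95.8 against 3.58 CPM (ratio 26.8), Fev at 159.8 against 10.8 CPM (14.8) and Rfx6 at 115.2 against 28.5 CPM (4.04). Fev was found in close shares of cells, 4 of the 23 with Neurog3 (17.4%) and 13 of the 85 without (15.3%). Its ratio came from the level in a few cells, with 2018 and 1172 CPM in wells E12 and A1 of plate 8A, which also held Neurod1. Nkx2-2 (3.42), Neurod1 (2.88), Insm1 (2.57) and Pax6 (1.79) were higher by less, and the Neurod1 ratio was 1.78 without well A1 of plate 8A. Leaving out the cell of well E3 of plate 8A brought the Pax4 ratio to 12.9, leaving out well E12 of plate 8A brought that of Fev to 7.25, and leaving out well B5 of plate 8A, a cell without Neurog3, brought them to 40.2 and 23.2. Rfx6 was below 4-fold, at 3.34, without well E10 of plate 8B, and also after thinning each cell to 100000 counts (3.59), under the stricter cell filter (3.815) and by the mean CPM of single cells (3.4998), which left 2 factors higher. By plate (8A and 8B), the ratios were 44.3 and 16.2 for Pax4, 19.4 and 4.81 for Fev and 2.68 and 6.24 for Rfx6.

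Between the Neurod1 cells and those without it, 6 of the 7 other factors were at least 4-fold higher (9.22% of all genes). Of these 6, Fev and Pax4 entered only through the Neurod1 cells, so the share of all genes is no measure for them. Pax4 was in 2 of the 87 cells without Neurod1. Fev was at 211.4 CPM against no count, at least 5178-fold higher against the floor of 3 counts over the group, and at least 3140-fold without well E12 of plate 8A. Pax6 was at 379.2 against 0.299 CPM, a ratio of 1266, Pax4 at 100.6 against 3.46 CPM (29.1), Rfx6 at 203.8 against 8.14 CPM (25.03) and Insm1 at 42.8 against 3.33 CPM (12.8). Nkx2-2, at 139.4 against 34.7 CPM, was just past the threshold at 4.01, and at 3.66 without the cell of well E12 of plate 8A. Neurog3 itself was at 227.7 against 83.9 CPM, a ratio of 2.71 that became 7.80 without well H8 of plate 8B and 1.53 without well E10 of the same plate. For Pax4 the ratio ran from 14.1 without well E3 of plate 8A to 182.8 without well H8 of plate 8B. Leaving out that last cell brought Insm1 to 24.3, and leaving out well H3 of plate 8A brought Rfx6 to 39.98.

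Within the Neurod1 cells, those that also held Neurog3 had more Pax4 (ratio 10.9), Fev (7.04), Nkx2-2 (2.75) and Rfx6 (1.74) and less Pax6 (0.853) and Insm1 (0.773) than those without it. Pax4 kept a ratio above 4 on both plates (22.5 and 4.17), whereas Fev was at 10.2 on plate 8A and 1.95 on plate 8B. Without well E12 of plate 8A, the Fev ratio over both plates was 3.78 and that of Insm1 0.428, and without well E3 of plate 8A that of Pax4 was 4.62. The Pax6 ratio became 1.114 without well B5 of plate 8A. Of the genes with the largest ratios that held on both plates, Neurog3, which sets the classes, Fhdc1, Slc44a2, Srrm4 and Rab31 were higher with both, and Birc5, Top2a, Ptpn14, Pip4k2c and Zfp39 with Neurod1 only. Srrm4, which encodes a neural splicing factor, was at 68.2 CPM against no count, with 78.7% of its counts in 1 cell. Slc44a2 was at 93.5 against 0.347 CPM, with 51.2% of its counts in 1 cell and 52.2 CPM without it, and Fhdc1 had 68.99% of its counts in 1 cell. Birc5 and Top2a, genes of dividing cells, were at 0.322 and 0.806 CPM with both and at 137.3 and 328.6 CPM with Neurod1 only, where 3 and 6 of 14 cells held them at 5 CPM or more. The cell of well H1 of plate 8B held 56.5% and 44.2% of these counts, and without it the levels with Neurod1 only were 65.5 and 201.3 CPM.

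Finally, the genes whose pattern over the epithelial cells was most like that of Neurog3 and Neurod1 were listed by Spearman's rank correlation of log2(CPM + 1), among 14309 genes. These values describe cells that share plates and depth, and many zeros, and carry no test. For Neurod1 they were Pnmal1 (0.95), the granin gene Scg3 (0.92), Resp18 (0.91), Gpr142 (0.90) and Pcsk1n (0.88), which encodes an inhibitor of a prohormone convertase. Among the factors, Fev was closest to Neurod1 (0.89), followed by Pax6 (0.75), Rfx6 (0.68), Insm1 (0.56), Pax4 (0.53), Nkx2-2 (0.44) and Neurog3 (0.16). For Neurog3 the values were lower, with Fam241b (0.49), Pdk2 (0.48), Ppp1r14a (0.47), Grina (0.46) and Sh2d3c (0.45). Of these 5 genes, 3 were again among the 5 closest on plate 8A and 0 on plate 8B. Fam241b shares exon bases with Neurog3 on the other strand, and was at 30.7 CPM in cells with neither, 128.1 CPM with Neurog3 only, 179.5 CPM with both (103.8 CPM without well E10 of plate 8B) and 48.6 CPM with Neurod1 only, so shared reads cannot be told apart from its own. The same limit holds for Cerkl, which shares exon bases with Neurod1. Cerkl was at 1.24 CPM with neither, 0.404 CPM with Neurog3 only, 15.5 CPM with both and 66.4 CPM with Neurod1 only. Of its counts with both, 83.3% came from 1 cell. Of the factors, Nkx2-2 and Pax4 (both 0.38) were closest to Neurog3, then Insm1 (0.28), Rfx6 (0.27), Neurod1 (0.16), Pax6 (0.11) and Fev (0.05).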

How the data were processed

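Smart-seq2 was run on single GFP+ cells of 3 mouse lines (192 cells each). The authors trimmed reads (Trim Galore 0.6.5, per the labels), estimated transcript abundance by kallisto on GRCm38 and collapsed it to genes by tximport. The deposited values are estimated counts, not normalized. The annotation release is not given in the sources used here. Of the values above 0, 36.1% had a decimal part of any size (30.5% lay more than 0.01 from a whole number), and all were rounded here. PCR copies of a molecule are counted as separate reads. No cell barcodes are shared, and no doublet caller was run.

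Cells were kept (549 of 576) at 1000 genes and 100000 counts or more and a mitochondrial share of 30% or less. Prox1-GFP cells with Epcam at 20 CPM or more were called epithelial (108 cells, with 77 others). The Nkx2.5 and Nkx3.2 lines kept 173 and 191 cells. A gene was detected at 1 count. Levels are CPM of counts summed over a group. Ratios take a floor of 3 counts over a group, and backgrounds cover genes in at least 5 of the cells compared. Named genes are the 8 factors, the fixed lists, the 5 genes most like Neurog3 and Neurod1 (in at least 10 cells) and the 5 largest ratios in each direction between cells with both and with Neurod1 only (at 50 CPM or more, in at least 50% of the cells of the higher class, alike on both plates). The factors and lists were chosen with earlier results of these data known. Alternatives changed the Epcam level, detection, depth (cells thinned to 100000 counts), filters, plate, fold and scaling. Counting steps were tested on simulated data. Python 3.11.15, numpy 2.4.6, pandas 2.3.3 and scipy 1.17.1 were used. Single values of some listed genes are not reported here.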

Additional observations from a re-analysis of the deposited data

How the results depend on the processing

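Of the summary values recomputed under each alternative, 86 stayed within their limits, 15 moved and none reversed. The share of epithelial cells with any factor was 80.6% after thinning to 100000 counts and 94.9% on plate 8A alone. The share of cells nested in the order of detection was 64.1% with 5 counts, 65.2% with 5 CPM and 60.9% after thinning. The number of factors 4-fold higher in Neurog3 cells was 1 on plate 8A (500 of 14880 genes), where Pax4 was in 4 cells only and so under the minimum of 5 cells. It was 6 when called at 2-fold, where 2137 of 16882 genes were called as well. After thinning, 5 of the 8 shares of cells stayed within their intervals, and Insm1 (12.96%), Nkx2-2 (77.8%) and Pax6 (20.4%) did not, which is what fewer reads per cell give. Of the 5 genes most like Neurog3, 3 were again among the 5 on plate 8A, 0 on plate 8B and 2 by Pearson correlation. Of those most like Neurod1, 3 were again among the 5 on plate 8A, 2 on plate 8B, 3 after thinning and 3 by Pearson correlation. The summed levels stayed within 1.5 times in 78 of 80 recomputations, and the exceptions were Fev on each plate. The causes of these differences between plates were not tested. Leaving out the Epcam-negative cell of well C11, the cells of wells H5 and E12 (8A) and A11 and H1 (8B), each cell in turn, and the cell with most of a gene's counts were added after seeing the data. Without wells H5 and A11, 5 in place of 4 of the NEUROG3 targets and partners were higher with Neurog3 only, 6 in place of 7 later endocrine factors were higher with both, and 2 in place of 1 cell cycle genes were lower with Neurod1 only. No paired analysis was possible because each line is 1 sample and the labels pair no cells.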
